A study of Mus musculus with 6 samples.

Results

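Ccnl1, Ccnl2, Srrm2 and Ddx5 are 4 genes of pre-mRNA splicing, and 8 of the 7959 assembled transcript models lay in their spans. A model was taken as a member when at least 50% of its exon bases lay in the mm10 span of the gene. All 8 models had 100% of their bases inside, so a limit of 90% gave the same members. Ccnl1, Ccnl2 and Ddx5 had 1 model each and Srrm2 had 5. RNA was sequenced from MEL cells, a mouse erythroleukemia line whose strain label is C57BL/6, after crosslinking with 3.7% formaldehyde for 30 min. The 3 groups of 2 libraries were the input chromatin, the chromatin isolated with the masked TH59-DB probe (the negative control) and the chromatin isolated with TH59-DB itself, a polyamide of pyrrole and imidazole units that is directed at telomere repeats. No genotype, drug or time differed between the groups. Only 1 library of each group carries a number in the labels, 2, so its partner is called 1, and the labels do not say whether the libraries came from separate cultures, so p-values measure only the spread between these libraries.

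Cyclins L1 and L2 (Ccnl1, Ccnl2) are partners of the CDK11 kinases and take part in splicing. Srrm2 is a very large serine- and arginine-rich protein of nuclear speckles, the bodies in which splicing factors gather. Ddx5, also called p68, is a DEAD-box RNA helicase of splicing and transcription. Transcripts of many splicing regulators are known to stay in the nucleus with an intron still in place, and RNA that stays near chromatin is what a chromatin preparation samples. The deposited models carry exon blocks, and the RefSeq gene table used here gives spans without exons, so it could not be told whether a block covers an annotated exon or an intron. The retained-intron state of the 4 genes was therefore not measured here.

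The libraries held 1803723 to 3122558 reads in total, of which 35.7% to 69.2% fell in models. In CPM, the number of reads in each 1000000 of a library's total, 1 read was therefore worth 0.320 to 0.554. Masked TH59-DB 1 stood apart: a single model took 50.8% of its total, against 2.77% to 20.8% in the other libraries, and 4341 models had 0 reads in it, against 0 to 1884 elsewhere. TH59-DB 1 held at least 5 reads of each of the 7959 models, so every model of these genes reached that number there whatever its level. Whether the models were chosen on that library is not given in the sources used here, and its part in the counts and medians over all models, which serve as background, was not tested. Of 24 erythroid marker genes 12 had a model, with summed levels of 992 and 1419 CPM in the input, 676 and 1342 CPM with the masked probe and 668 and 524 CPM with TH59-DB. Of 28 markers of other cell types 2 had a model, Itga2b at up to 5.60 CPM and Laptm5 at 4.06 to 43.8 CPM. The share of these marker levels in any result was not tested. In bulk chromatin, fewer cells or copies carrying an RNA and less RNA per cell cannot be told apart.

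Strands given here are those of the genes, and the models' own strands were not compared with them. The Ccnl1 model lay at chr3:65948525-65948783, in a gene on the minus strand. It had 2 exon blocks of 76 and 93 bases with 90 bases between them, and it began 9466 bases after the annotated start, 2617 bases before the end of the gene. The Ccnl2 model was a single block of 244 bases at chr4:155819761-155820004, 7272 bases after the annotated start of this plus-strand gene. The Ddx5 model, at chr11:106782238-106782587 in a minus-strand gene, had blocks of 19 and 119 bases with a gap of 212 bases. It lay 5907 to 6598 bases after the 3 annotated starts, 1883 bases before the gene end and 105 bases from Mir3064, a microRNA gene inside the Ddx5 span.

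The 5 Srrm2 models followed each other along chromosome 17, in the direction of this plus-strand gene. Model 1 (chr17:23803377-23808103) had 3 blocks and began 152 bases after the nearer of 2 annotated starts. The RefSeq span of Srrm2 begins earlier, 12850 bases before model 1. Model 2 (chr17:23808360-23811047) had 5 blocks, the most of any of the 8 models. Model 3 (chr17:23815130-23817142) and model 4 (chr17:23817775-23820997) were single blocks of 2013 and 3223 bases, and model 4 was the 10th longest of all 7959 models. Model 5 (chr17:23821593-23822688) had 2 blocks and ended 2053 bases before the gene end. In all, 5 of the 8 models had more than 1 block, whereas 75.3% of all models had a single one. None of the 8 overlapped another model, though how reads with several matches were counted is not given in the sources used here. The Srrm2 span also overlaps Elob, Gm52285 and Mir5125, and the Ddx5 span overlaps Cep95. Because the strand setting of the counting is not given in the sources used here, reads of an antisense transcript could not be told apart from those of the gene.

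The promoter windows are shown because the probe was directed at the repeat TTAGGG and because the models lie at very different distances from these starts. The RefSeq windows of build GRCm38.p6 run from 250 bases before to 50 after each annotated start, and the 4 genes have 7 of them. Neither TTAGGG nor its reverse complement CCCTAA was in any of the 7, and 10.6% of all 32851 windows hold one or the other. The 7 windows were 64.0% to 71.0% G and C, against a median of 52.7% over all windows. The window nearest to a model is printed for each gene, 5′ to 3′ on the gene's strand. Capitals mark TGACGTCA, the palindromic cyclic-AMP response element, or CCGGAAG on either strand, a core recognised by ETS factors. Both motifs were chosen after the sequences were seen. TGACGTCA is in 1.79% of all windows and CCGGAAG or CTTCCGG in 8.86%. The windows were chr3:65958200-65958499 (minus strand) for Ccnl1, chr4:155812239-155812538 (plus strand) for Ccnl2, chr17:23802975-23803274 (plus strand) for Srrm2 and chr11:106788445-106788744 (minus strand) for Ddx5.
Ccnl1: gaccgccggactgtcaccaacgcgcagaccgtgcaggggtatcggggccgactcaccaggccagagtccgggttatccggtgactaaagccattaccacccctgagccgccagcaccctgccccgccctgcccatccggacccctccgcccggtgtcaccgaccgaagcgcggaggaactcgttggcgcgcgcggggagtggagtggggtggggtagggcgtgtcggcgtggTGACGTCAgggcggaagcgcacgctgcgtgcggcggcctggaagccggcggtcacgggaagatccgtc
Ccnl2: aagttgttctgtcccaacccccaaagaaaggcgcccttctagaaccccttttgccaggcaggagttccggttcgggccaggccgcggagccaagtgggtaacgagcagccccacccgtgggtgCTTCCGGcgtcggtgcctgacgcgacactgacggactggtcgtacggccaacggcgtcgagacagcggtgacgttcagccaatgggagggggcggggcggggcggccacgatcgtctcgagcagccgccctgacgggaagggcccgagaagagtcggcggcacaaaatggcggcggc
Srrm2: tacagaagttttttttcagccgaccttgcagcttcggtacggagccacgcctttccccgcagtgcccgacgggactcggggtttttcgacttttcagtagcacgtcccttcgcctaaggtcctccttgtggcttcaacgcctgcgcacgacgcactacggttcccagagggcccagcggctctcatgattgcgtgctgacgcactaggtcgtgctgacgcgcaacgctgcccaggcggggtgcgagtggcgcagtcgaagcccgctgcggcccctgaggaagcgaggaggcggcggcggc
Ddx5: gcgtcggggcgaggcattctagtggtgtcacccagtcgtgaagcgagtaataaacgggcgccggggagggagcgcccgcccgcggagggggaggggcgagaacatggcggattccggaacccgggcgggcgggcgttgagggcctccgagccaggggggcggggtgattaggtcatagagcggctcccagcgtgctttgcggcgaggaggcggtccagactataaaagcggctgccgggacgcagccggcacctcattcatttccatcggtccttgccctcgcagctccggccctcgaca
Ccnl1 alone of the 7 windows held TGACGTCA. Ccnl2 and another of the 3 Ddx5 windows held the ETS core, and the Srrm2 windows held neither. A match describes the letters only.

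Ccnl1, a cyclin of the splicing kinases, was low in every library. It had 4 and 7 reads in the input (1.34 and 2.45 CPM), 10 and 32 with the masked probe (5.07 and 10.2 CPM) and 14 and 6 with TH59-DB (7.76 and 2.32 CPM). Both masked libraries lay above both input libraries, while the TH59-DB libraries overlapped the other groups. Mean levels were 1.90 ± 0.786 CPM in the input, 7.66 ± 3.66 with the masked probe and 5.04 ± 3.85 with TH59-DB (SD, n = 2 each). The masked probe stood 4.04-fold above the input in mean CPM, and the pooled reads gave a ratio of 4.38 with a 95% exact binomial interval from 2.22 to 9.43, which covers counting error only. The edgeR log2 fold change was 2.03 ± 1.33 (SE), with an adjusted p of 0.758, which did not pass.

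Ccnl2, the other cyclin L, had its reads concentrated in 1 library. The input held 6 and 2 reads (2.01 and 0.701 CPM), masked TH59-DB 158 and 11 (80.2 and 3.52 CPM), and TH59-DB 14 and 1 (7.76 and 0.386 CPM). Masked TH59-DB 1 was thus 22.8-fold above masked TH59-DB 2, a ratio reached by 16 of 5254 tested models with a read in the latter (0.305%). Both masked libraries were above both input libraries, but TH59-DB 1 was above masked TH59-DB 2.

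On the group means, Ccnl2 was 41.8 ± 54.2 CPM with the masked probe, 4.07 ± 5.22 with TH59-DB and 1.36 ± 0.926 in the input (SD, n = 2). The edgeR log2 fold change of TH59-DB over the masked probe was -3.93 ± 1.42 (SE), the lowest of all 5498 models tested, with an unadjusted p of 0.0157 and an adjusted p of 0.221. That of the masked probe over the input was 5.33 ± 1.53, with an adjusted p of 0.224. Without masked TH59-DB 1 these became 0.083 (adjusted p = 0.989) and 0.69 (adjusted p = 1.00) in edgeR. Without masked TH59-DB 2 they became -5.07 (adjusted p = 6.75e-04) and 6.26 (adjusted p = 2.71e-06), and without input 2 the former became -4.13 (adjusted p = 0.0139). The lone masked library is then assumed to vary like the other groups. Leaving out masked TH59-DB 2 also moved the median of all models to 5.26 for TH59-DB over masked and -1.47 for masked over input. Over all alternatives the edgeR or DESeq2 adjusted p ran from 6.75e-04 to 0.989 for TH59-DB over masked and from 2.71e-06 to 1.00 for masked over input.

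Ddx5, the RNA helicase, was the only one of the 8 models with a single read in a control-probe library. It had 39 and 61 reads in the input (13.1 and 21.4 CPM), 1 and 52 with the masked probe (0.507 and 16.7 CPM) and 11 and 8 with TH59-DB (6.10 and 3.09 CPM). Both TH59-DB libraries lay below both input libraries and between the masked ones. Such a split of the masked pair was common: of 3637 tested models with at least 20 reads in masked TH59-DB 2, 958 (26.3%) had at most 1 read in masked TH59-DB 1.

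Mean Ddx5 was 17.2 ± 5.87 CPM in the input and 4.59 ± 2.13 CPM with TH59-DB (SD, n = 2), 3.75-fold lower. The edgeR log2 fold change was -1.63 ± 1.16 (SE) with an adjusted p of 0.642. It passed only when masked TH59-DB 1, which is in neither group, was left out of the fit (-2.12, adjusted p = 0.0176), and over the 15 alternatives the edgeR or DESeq2 adjusted p ran from 0.0176 to 1.00. Against the masked probe the log2 value was -0.37 ± 1.15, and its sign rested on the masked pair: -1.58 without masked TH59-DB 1 and 2.62 (adjusted p = 0.139, edgeR) without masked TH59-DB 2. The log2 value of masked over input, -1.26 ± 1.12, became -4.44 (adjusted p = 0.00738, edgeR) without masked TH59-DB 2.

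**Figure D1:**
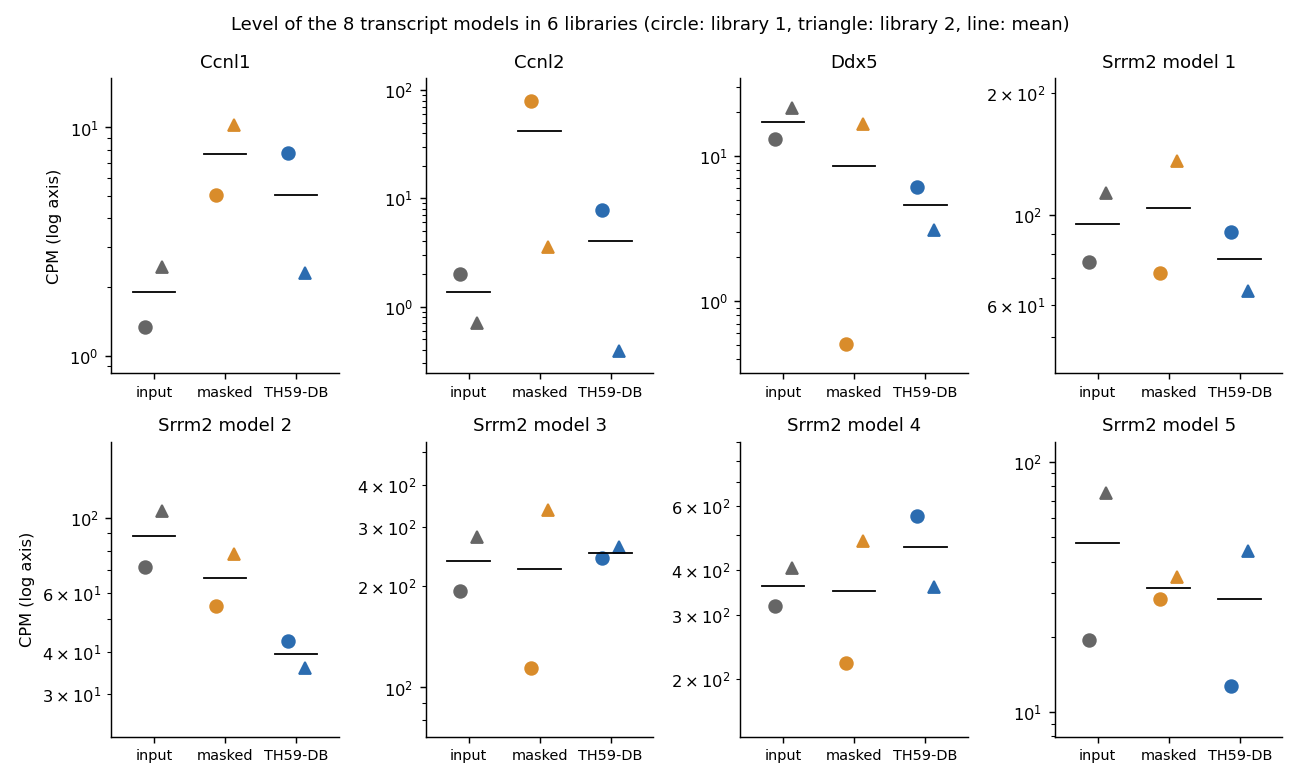
Level in CPM on a log axis for each of the 8 models (panels), with the groups on the x axis, circles for library 1, triangles for library 2 and lines for the mean of 2. Ccnl2 reaches 80.2 CPM in masked TH59-DB 1 and at most 7.76 CPM elsewhere, Ddx5 lies at 0.507 CPM in the same library, and both TH59-DB libraries of Srrm2 model 2 lie below the other 4.

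Srrm2, the speckle protein, held the most reads of the 4 genes in every library. Its 5 models also cover more bases than the single models of the other genes, and levels per length follow below. The reads of its 5 models summed to 679 and 978 CPM in the input, 491 and 1064 CPM with the masked probe and 952 and 766 CPM with TH59-DB. The groups overlapped, with means of 828 ± 211, 778 ± 405 and 859 ± 132 CPM (SD, n = 2). Masked TH59-DB 1 was the lowest library for this sum. A single model held over 10% of a library and is called the dominant model below. With it taken out of the totals, the input sums were 790 and 1142 CPM. They were 997 and 1229 CPM with the masked probe and 1203 and 788 CPM with TH59-DB.

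Per length, on the authors' FPKM scale, Srrm2 models 1 and 2 were higher than models 3 and 4, except for model 2 in TH59-DB. Model 1 ran from 196 to 411 FPKM. Model 2 stood at 204 and 300 FPKM in the input, 157 and 223 with the masked probe and 124 and 103 with TH59-DB. Model 3 ran from 56.7 to 167 FPKM and model 4 from 68.8 to 175 FPKM. In TH59-DB 1 model 4 (175 FPKM) was above model 2, and in TH59-DB 2 both model 3 (130 FPKM) and model 4 (112 FPKM) were. Ccnl1, at 7.93 to 60.6 FPKM, was below Srrm2 model 1 in every library, and Ddx5 ran from 3.68 to 155 FPKM. In the input Ddx5 stood at 94.7 and 155 FPKM, where model 3 stood at 96.4 and 139 and model 4 at 98.6 and 125. Ccnl2 reached 329 FPKM in masked TH59-DB 1, above all 5 Srrm2 models there, and ran from 1.58 to 31.8 FPKM in the other libraries.

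**Figure D2:**
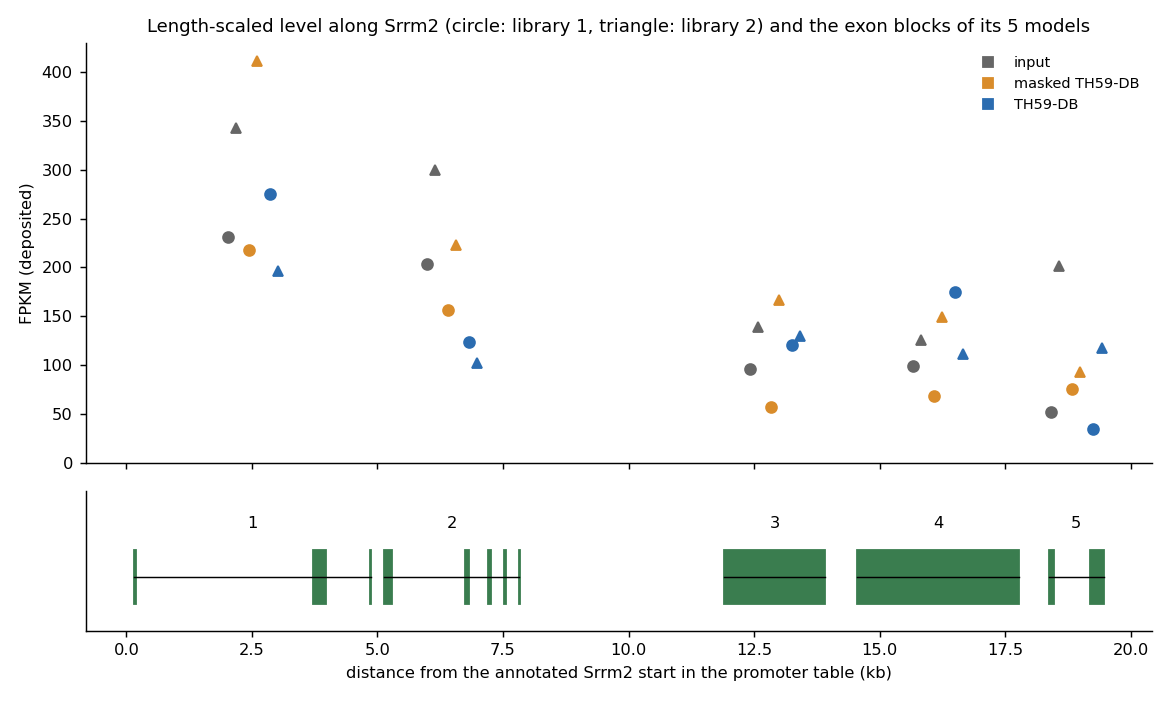
Deposited FPKM (y axis) of the 5 Srrm2 models in the 6 libraries, placed at each model's middle along the distance in kb from the annotated start; circles are library 1 and triangles library 2, slightly offset by group, and the lower track gives the exon blocks. In each input library models 1 and 2 exceed models 3 and 4, while in TH59-DB model 2 lies at 124 and 103 FPKM, close to models 3 and 4.

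Srrm2 model 2 was the only one of the 8 models whose TH59-DB libraries lay below those of both other groups. Over all models, TH59-DB lay below the masked probe without overlap for 14.4% and below the input for 23.1%. The share of models meeting both conditions was not counted. It had 213 and 300 reads in the input (71.4 and 105 CPM), 108 and 244 with the masked probe (54.8 and 78.1 CPM) and 78 and 93 with TH59-DB (43.2 and 35.9 CPM). Mean levels were 88.2 ± 23.8, 66.5 ± 16.5 and 39.6 ± 5.18 CPM (SD, n = 2). TH59-DB was 1.68-fold below the masked probe and 2.23-fold below the input. In edgeR the log2 fold changes were -0.48 ± 0.61 (SE, adjusted p = 0.853) and -0.79 ± 0.61 (adjusted p = 0.688). Both kept their sign under all 14 alternatives and passed under none of them. An exact permutation test of 2 libraries against 2 cannot give a p below 0.333.

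The other Srrm2 models did not separate the groups. Model 1 stood at 76.4 and 113 CPM in the input, 72.1 and 136 with the masked probe and 90.9 and 64.9 with TH59-DB. Model 3 stood at 194 and 280, 114 and 336, and 242 and 261 CPM in the same order. Model 4, with the most reads, stood at 318 and 404, 222 and 480, and 564 and 360 CPM. For these 3 models the 2 masked libraries spanned the range of the input or more, and the TH59-DB values overlapped both.

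Srrm2 model 5, near the end of the gene, split by library within groups instead. It had 58 and 215 reads in the input (19.4 and 75.3 CPM), 56 and 108 with the masked probe (28.4 and 34.6 CPM) and 23 and 114 with TH59-DB (12.8 and 44.0 CPM). Input 2 was 3.88-fold above input 1, a ratio reached by 19 of 1522 tested models with at least 100 input reads (1.25%). Library 2 was above library 1 in all 3 groups on library totals. The masked pair turned without the dominant model in the totals (57.7 and 40.0 CPM) and as a share of the Srrm2 reads (5.79% and 3.25%). The input and TH59-DB pairs kept library 2 above library 1 on both measures.

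As shares of the Srrm2 reads, which do not depend on the library total, models 1 and 2 were lowest in the TH59-DB libraries. Together they held 21.8% and 22.3% of the Srrm2 reads in the input and 25.8% and 20.1% with the masked probe. They held 14.1% and 13.2% in TH59-DB, where the 95% exact binomial intervals were 12.5% to 15.8% and 11.7% to 14.7%. The nearest library of another group, masked TH59-DB 2, had an interval of 18.8% to 21.5%, which did not overlap those of TH59-DB. These intervals take each read as an independent draw and leave out the spread between libraries. Group means were 22.1% ± 0.420, 23.0% ± 4.03 and 13.6% ± 0.654 (SD, n = 2). Model 2 alone took 10.5% and 10.7% in the input, 11.2% and 7.34% with the masked probe and 4.54% and 4.69% with TH59-DB.

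Models 3 and 4, the long single blocks, held 72.7% ± 3.84 of the Srrm2 reads in the input, 72.5% ± 5.82 with the masked probe and 82.8% ± 2.46 with TH59-DB (SD, n = 2). The 2 TH59-DB libraries did not share this evenly: model 4 held 59.2% in TH59-DB 1 and 46.9% in TH59-DB 2, and model 3 held 25.4% and 34.1%. Unequal use of the models was tested with edgeR diffSpliceDGE over 954 genes. The adjusted p of Srrm2 was 0.980 for TH59-DB over masked, 1.00 for TH59-DB over input and 0.991 for masked over input, while 0, 1 and 0 genes passed. Relative to the whole gene, the log2 change of model 2 was -0.68 (unadjusted p = 0.212) against the masked probe and -0.83 (unadjusted p = 0.129) against the input, and neither passed. The comparison was chosen after the shares were seen.

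**Figure D3:**
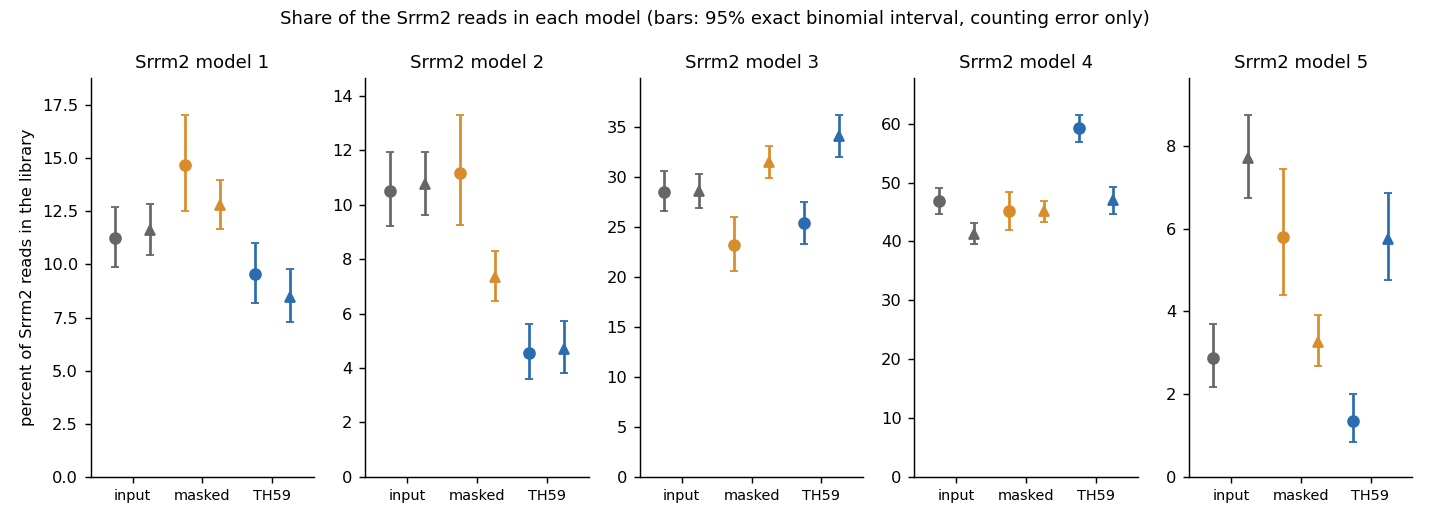
Percent of each library's Srrm2 reads (y axis) in each of the 5 models (panels), by group; circles are library 1, triangles library 2 and bars 95% exact binomial intervals for counting error only. For model 2 the TH59-DB libraries sit at 4.54% and 4.69% and the other 4 between 7.34% and 11.2%.

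Between TH59-DB and the masked probe, 0 of the 8 models passed an adjusted p of 0.05 in edgeR, where 155 of 5498 models tested did (2.82%), all of them higher with TH59-DB. At an unadjusted p of 0.05 a single member was counted, Ccnl2, against 11.6% of all models. In DESeq2 0 members passed, against 245 of 7959 models (3.08%). The log2 values were -0.47 for Ccnl1, -3.93 for Ccnl2, -0.37 for Ddx5, and -0.12, -0.48, 0.67, 0.70 and 0.37 for Srrm2 models 1 to 5. Their median was -0.24, against 0.45 over all models tested. That median moved from -0.08 to 0.55 with the scaling of the libraries, so the values are also given relative to it: Srrm2 models 3 and 4 were 0.21 and 0.25 above it and the other 6 below it. The groups did not overlap for 1 of 8 models, Srrm2 model 2, lower with TH59-DB, as for 14.4% of all models. With the dominant model taken out of the totals, Ccnl1 and Srrm2 model 1 were also lower without overlap. This made 3 of 8 models, as for 21.3% of all models on that scaling. The calls over all models were then 142 higher and 26 lower.

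Between TH59-DB and the input, 0 of the 8 models passed in edgeR, where 245 of all models did (4.46%), 242 higher (4.4%) and 3 lower (0.0546%). That split was 207 and 23 with recovered totals and 222 and 94 with the dominant model taken out of them. At an unadjusted p of 0.05 the count was 0 of 8, against 14.6% of all models. In DESeq2 0 members passed, against 364 of 7959 models (4.57%). The log2 values were 1.55 for Ccnl1, 1.40 for Ccnl2, -1.63 for Ddx5, and 0.05, -0.79, 0.52, 0.64 and 0.04 for Srrm2 models 1 to 5. Their median was 0.28, against 0.35 over all models tested. Groups did not overlap for Srrm2 model 2 and Ddx5, 2 of 8 models, both lower with TH59-DB, and 23.1% of all models were lower in this way. Both comparisons use the same TH59-DB libraries.

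Between the masked probe and the input, 0 of the 8 models passed in edgeR, where 50 of all models did (0.909%). At an unadjusted p of 0.05 only Ccnl2 was counted, against 7.84% of all models, and in DESeq2 Ccnl2 passed (log2 value 5.33, adjusted p = 0.00941), as did 122 of 7959 models (1.53%), while Ccnl1 got no adjusted p. The log2 values were 2.03 for Ccnl1, 5.33 for Ccnl2, -1.26 for Ddx5, and 0.16, -0.31, -0.15, -0.07 and -0.33 for Srrm2 models 1 to 5. Their median was -0.11, against -0.07 over all models. Groups did not overlap for Ccnl1 and Ccnl2, 2 of 8 models, both higher with the control probe, as for 15.4% of all models. With the dominant model taken out of the totals Srrm2 model 1 was also higher without overlap (146 and 157 CPM against 88.9 and 132 CPM). This made 3 of 8 models, as for 21.4% of all models. On that scaling 116 models passed higher and 18 lower, and with recovered totals 90 and 18.

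**Figure D4:**
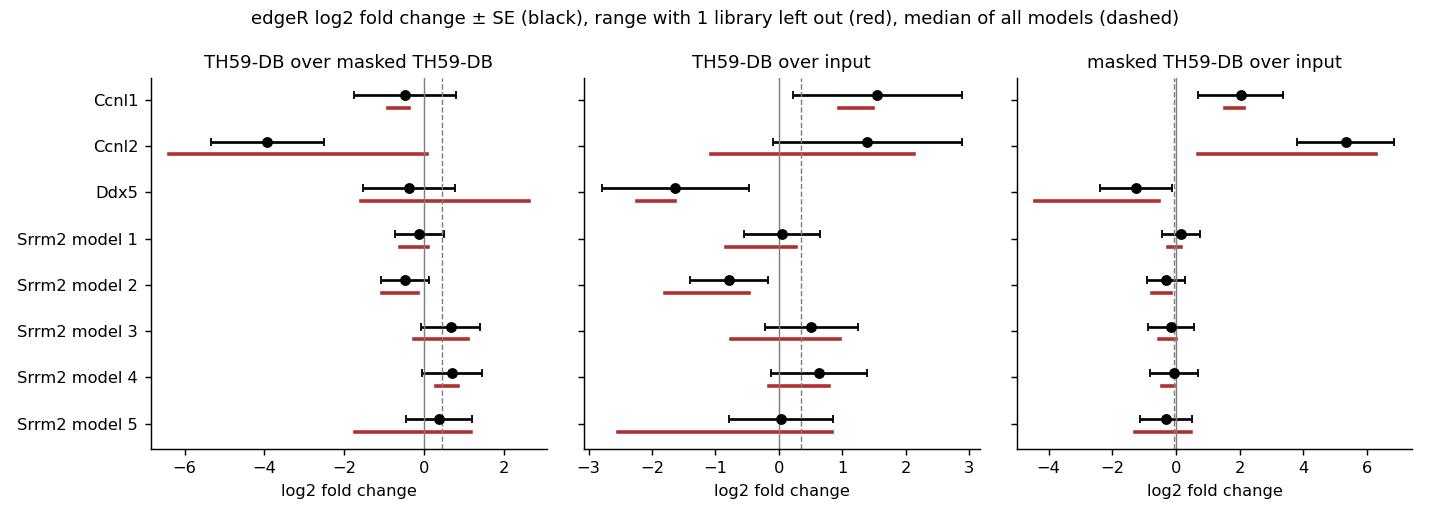
The edgeR log2 fold change of each of the 8 models (rows) in the 3 comparisons (panels), as black points with SE bars, with the range over fits that leave out 1 library in red and the median of all models as a dashed line. The red range of Ccnl2 for TH59-DB over masked runs from -6.39 to 0.083 and that of Ddx5 from -1.58 to 2.62, whereas Srrm2 model 4 stays between 0.30 and 0.86.

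The splicing genes around these 4 were followed through a list of 110 genes, of which 81 had a model. Without the 4 genes, 138 models of 76 genes were tested. In each of the 3 comparisons 0 of them passed in edgeR in either direction, and 0 passed in DESeq2. Without masked TH59-DB 2 many models passed in edgeR, in the list and outside it. For TH59-DB over masked, 25 of 141 list models passed higher (17.7%, against 1440 of 7189 models in all) and 4 lower (2.84%, against 3.64%). For masked over input, 5 passed higher (3.55%, against 6.16%) and 29 lower (20.6%, against 12.8%), a difference in share that was not tested. For TH59-DB over input 4 list models passed without masked TH59-DB 2 (2.84%, against 11.1% of all models) and 4 without masked TH59-DB 1 (2.82%, against 798 of 7276 models in all). At an unadjusted p of 0.05 the counts were 0 higher and 2 lower for TH59-DB over masked, 1 and 2 for TH59-DB over input, and 3 and 1 for masked over input, where 11.6%, 14.6% and 7.84% of all models were counted in either direction. Median log2 values were -0.10, -0.27 and -0.11, against 0.45, 0.35 and -0.07 over all models. The fold was negative for 55.1%, 63.8% and 57.2% of these models, against 36.7%, 40.1% and 53.5% of all models. Models with a fold of exactly 0 were left out of these shares.

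Among the partner kinases of cyclin L, Cdk11b, which encodes CDK11, had 2 models, and their log2 values were 0.05 and -0.12 for TH59-DB over masked and 0.08 and -0.15 for TH59-DB over input. In its class, cyclin L and its partner kinases without the 4 genes, 7 models of 3 genes were tested. Their log2 values ran from -2.35 to 0.88 for TH59-DB over masked. They ran from -0.59 to 1.91 for TH59-DB over input and from -1.27 to 4.17 for masked over input. Clk1, Clk3 and Clk4, kinases that phosphorylate SR proteins, stood at -0.64, -0.58 and 0.63 for TH59-DB over masked. Srrm1, the other large SR-related matrix protein, had 2 models at 0.19 and -0.70 in the same comparison. Son, a speckle protein like Srrm2, had 5 models there between -0.59 and 0.97. None of these models passed in any comparison in the fit of all 6 libraries, and models of Son did without masked TH59-DB 2. Ddx17, the close paralog of Ddx5, had 3 models at -0.45, 1.54 and 1.59 for TH59-DB over masked, which did not pass in the fit of all 6 libraries. Ddx17 was among the genes called without masked TH59-DB 2. All 3 models had 0 reads in masked TH59-DB 1, where Ddx5 had 1.

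The genes named next had the smallest p in each direction, which need not be the most extreme log2 values. For TH59-DB over masked, the lower side was led by Thrap3, a splicing and mediator-associated protein (-2.48, adjusted p = 0.221 in edgeR). Ddx46, a helicase of the U2 snRNP (-1.78), and Rsrp1 (-1.43) followed. On the higher side were Prpf6 of the U5 snRNP (3.09), the export helicase Ddx39b (3.53) and Hnrnpu (2.82). Each of these 3 had 0 reads in masked TH59-DB 1. For TH59-DB over input, Ddx46 came nearest to passing: it had 62 and 152 reads in the input, 26 and 87 with the masked probe and 13 and 8 with TH59-DB, a log2 value of -2.54 with an adjusted p of 0.0776 in edgeR. A 4-block model of Hnrnpl (-2.25) and Mbnl1 (-1.20) followed, and Rbm6 (5.23), Rsrc1 (2.73) and another Hnrnpl model (1.24) led the other way. For masked over input, Tra2a (3.07), Rbm6 (5.51) and Rsrp1 (1.81) led the higher side by p. Prpf8 (-2.03), Hnrnpl (-1.42) and Sf3b3 (-1.27) led the lower side. All these values missed the threshold in the fit of all 6 libraries.

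**Figure D5:**
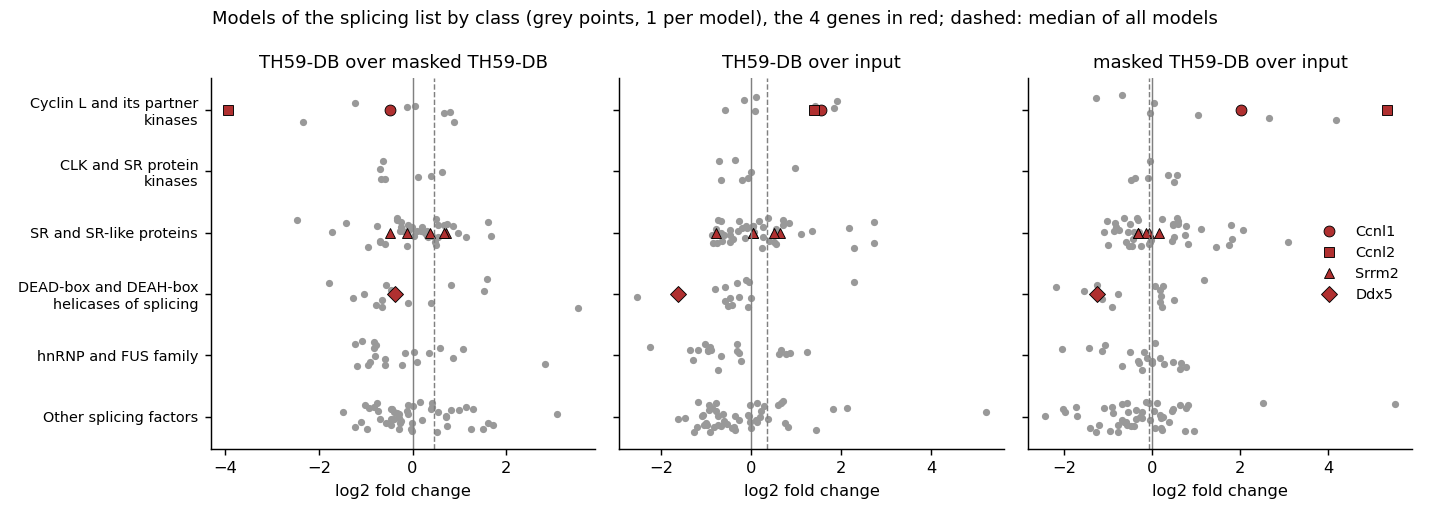
The edgeR log2 fold change (x axis) of each tested model of the splicing list by class (rows) in the 3 comparisons (panels), grey for other genes and red for the 4 genes, with the median of all models dashed. The Ccnl2 square is the lowest point for TH59-DB over masked at -3.93, and the Ddx5 diamond lies at -1.63 for TH59-DB over input, with Ddx46 lower in the same row at -2.54.

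The models of other genes whose levels ran most like each gene's leading model were found by Euclidean distance in log2(CPM + 1) over the 6 libraries, as a description. Nearest to Ccnl1 were single-block models in Zfp169 (distance 0.635), Tmem201 (0.696) and Usp38 (0.867). Nearest to Ccnl2 were single-block models in Abcb9 (1.43), Gm31349 (1.54) and Lrmda (1.88), all highest in masked TH59-DB 1, at 48.2, 30.4 and 25.9 CPM. Nearest to Srrm2 model 4 were Rmrp (1.28), the RNA of RNase MRP, Ncl (1.57), which encodes nucleolin, and Anp32b (1.61). Nearest to Ddx5 were H2bc7 (0.661), a histone gene, Ptp4a2 (0.680) and Eif2b5 (0.755), with 0 to 1.01 CPM in masked TH59-DB 1 and 2.32 to 3.48 CPM in TH59-DB 2.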

How the data were processed

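The 6 deposited tables hold counts of reads per assembled model and the authors' FPKM values, equal to the count per kilobase of model length and per 1000000 of a library total that was recovered from them. Per the submitters' processing notes, cutadapt, HISAT2, Cufflinks, featureCounts and mm10 were used; versions and roles are not given in the sources used here. Model lengths are the authors' column. The tables of libraries 1 and 2 were joined on chromosome, start and end: 7695 models matched on all exons, 264 on chromosome, start and length, and 0 stayed unmatched. Gene spans came from RefSeq (GRCm38.p6).

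Counts were tested in edgeR 4.0.16 (R 4.3.3) with filterByExpr, TMM on summed model counts and robust glmQLFit, in 1 fit of all 6 libraries with a group term, which tested 5498 models at a biological coefficient of variation of 0.670. P-values are 2-sided and Benjamini-Hochberg adjusted over all models of a comparison. The 3 comparisons share their groups. DESeq2 1.42.0 was an alternative. Intervals and CPM precision cover counting error only, since no molecular identifiers were counted.

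The genes and lists were chosen with earlier results of these data known. Splicing genes were named by the smallest p, 3 in each direction where none passed, besides Ddx17, Srrm1, Son, Cdk11b and the Clk genes. Protein features were planned and not analysed here.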

Additional observations from a re-analysis of the deposited data

How the results depend on the processing

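Of 342 fold values of the 8 models under the alternatives, 291 kept their direction and side of the threshold, 38 changed sign and 13 passed it; the causes were not tested. Of 48 CPM values under another denominator, 26 moved by over 1 SD. Ccnl1 and Srrm2 model 2 kept their sign under every alternative run. Depth limits both cyclins: Ccnl1 had 4 to 32 reads a library, and Ccnl2 had 1 to 14 outside masked TH59-DB 1.

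The number of models called moved as follows. For TH59-DB over masked it was 245 in DESeq2, 47 with gene sums and 76 with recovered totals and TMM (added after seeing the data), and 32 to 1702 with 1 library left out (32 without TH59-DB 2, 1702 and 314 without masked libraries 2 and 1). For TH59-DB over input it was 591 with only the groups compared, 97 with gene sums and 101 to 801 with 1 library left out (101 without TH59-DB 2, 801 without masked TH59-DB 2). For masked over input it was 122 in DESeq2, 135 with no filter, 108 with recovered totals, 134 with those less the largest models, 16 with only the groups compared, 14 with gene sums, 14 with recovered totals and TMM, and 23 to 1364 with 1 library left out (23 without each input library in turn, 1364 without masked TH59-DB 2).

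Of the 8 models, 1 was called for TH59-DB over masked with no filter (Ccnl2, -4.14), with totals less the dominant model (-4.09) and with the replicate block. With no filter, 220 of 7959 models were called in that comparison (2.76%). For masked over input 1, again Ccnl2, was called in DESeq2, with no filter, with recovered totals, with those less the dominant model and with the block. In the splicing list without the 4 genes, Thrap3 was called for TH59-DB over masked with totals less the dominant model. Ddx46, Hnrnpl and Rsrc1 were called for TH59-DB over input with only the groups compared. Of the 8 models, 0 to 1 were called with 1 library left out in either TH59-DB comparison and 0 to 2 for masked over input.

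Deviations of same-numbered libraries correlated at 0.108, 0.0769 and -0.0383. Such values cannot tell whether same-numbered libraries were prepared together, and the main fit did not pair them. With the replicate block 217, 325 and 127 models were called, and Ccnl2 passed in edgeR for TH59-DB over masked (-3.47, adjusted p = 0.0195) and masked over input (4.35, adjusted p = 0.00278). Signs turned under the block for Srrm2 model 5 (-0.17, -0.16 and 0.013 in the 3 comparisons) and Ddx5 over masked (0.030).

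Other signs turned as follows. For TH59-DB over masked, Srrm2 model 5 was -0.14 with recovered totals, and models 3 and 5 were -0.11 and -0.65 with those less the dominant model. For TH59-DB over input, models 1 and 5 were -0.12 and -0.064 with no filter and -0.29 and -0.73 with recovered totals. They were -0.29 and -0.84 with recovered totals less the dominant model, and -0.24 and -0.26 with recovered totals and TMM. For masked over input, models 3 and 4 were 0.17 and 0.26 with totals less the dominant model, and model 1 was -0.087 with recovered totals and TMM.

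With 1 library left out, TH59-DB over masked ran from -6.39 to 0.083 for Ccnl2, -1.58 to 2.62 for Ddx5, and -0.59 to 0.11, -0.26 to 1.11 and -1.74 to 1.18 for Srrm2 models 1, 3 and 5. TH59-DB over input ran from -1.06 to 2.13 for Ccnl2, and -0.83 to 0.27, -0.75 to 0.96, -0.15 to 0.79 and -2.53 to 0.84 for Srrm2 models 1, 3, 4 and 5. Masked over input ran from -0.24 to 0.16 for Srrm2 model 1 and -1.30 to 0.46 for model 5.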
